A study of Mus musculus with 24 samples.

Results

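The pacemaker channel genes Hcn2 and Hcn4, the connexin genes Gja1, Gja5, Gjc1 and Gjd3, and Cntn2, a gene used to mark the conduction system of the mouse heart, were followed across 24 mouse hearts. They were chosen by gene symbol, and all 7 were found among the 19664 rows of the deposited table of transcript levels. Of these, 6 passed the expression minimum of 1 FPKM (a fragment count corrected for transcript length and library depth) in at least 6 hearts, and Gjd3 did not.

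Each heart came from an untreated adult C57BL/6J mouse. There were 6 mice of each genotype, of which 3 were male and 3 female. WT mice carried no transgene, OGA_TG mice carried a transgene for OGA, OGT_TG mice carried a transgene for OGT, and DTG mice carried both (OGT_TG_x_OGA_TG). OGT attaches the sugar O-GlcNAc to serine and threonine residues of proteins, and OGA takes it off again. The labels describe both transgenes as cardiac specific. The promoter that drives them, the number of founder lines and the exact age are not given in the sources used here. RNA came from whole hearts, so atria, ventricles, conduction tissue and vessels were measured together.

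HCN channels open when the membrane becomes more negative, bind cAMP, and carry the inward current that drives the heartbeat of the sinoatrial node. Connexins assemble into the gap junctions through which the action potential passes from cell to cell. Connexin 43, from Gja1, serves the working ventricle; connexin 40, from Gja5, serves the atria, the His-Purkinje system and the arterial endothelium; connexin 45, from Gjc1, and in the mouse the product of Gjd3, are known from the nodes. Cntn2 encodes contactin 2, a cell adhesion molecule first known from neurons.

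Some facts of the whole series bear on what follows. Estimated depth was 11.4 to 17.8 M fragments per library. The OGT transgene row stood at 714.7 to 2691 FPKM in OGT_TG and 3986 to 5261 FPKM in DTG, and at no more than 3.44 FPKM in the other hearts. The OGA row stood at 3065 to 5208 FPKM in hearts with that transgene and at no more than 0.0222 FPKM in those without. Replicates 3 and 6 of OGT_TG stood apart: on the first principal component (40.8% of the variance) they scored 52.7 and 52.9, against 11.4 to 17.9 for the other OGT_TG hearts. Many values with OGT_TG are therefore also given without both, and the rest come from all 6 OGT_TG hearts. Without both, 25.3% of rows were called in OGT_TG against WT, in place of 37.4%. The numbers that open the sample titles, whose meaning the labels do not give, are the same 4 in WT and OGT_TG. OGA_TG carries 2 others, 1 for each sex, and DTG shares 0 with WT, so genotype and number cannot be told apart in any comparison but that of OGT_TG with WT, the interaction included. Isl1, a defining marker of sinoatrial cells, averaged 0.0293 FPKM in WT hearts.

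The promoters of both channel genes and of Cntn2 are shown to set the pacemaker channel genes beside the marker of the conduction system. Windows of 250 bases before to 50 bases after the start came from RefSeq on GRCm38.p6 and matched 5 of the 7 genes: Hcn2, Hcn4, Gja1, Gja5 and Cntn2. These RefSeq starts need not be those of the GENCODE M21 gene positions given below. The Hcn4 window ends before the GENCODE gene start at 58823412, and the Cntn2 window lies inside the gene, whose first base on the minus strand is 132543256. Capitals mark GC boxes (GGGCGG or its reverse complement), and the sequences read 5′ to 3′ on the strand of the gene.
Hcn2 (chr10:79716384-79716683, plus strand): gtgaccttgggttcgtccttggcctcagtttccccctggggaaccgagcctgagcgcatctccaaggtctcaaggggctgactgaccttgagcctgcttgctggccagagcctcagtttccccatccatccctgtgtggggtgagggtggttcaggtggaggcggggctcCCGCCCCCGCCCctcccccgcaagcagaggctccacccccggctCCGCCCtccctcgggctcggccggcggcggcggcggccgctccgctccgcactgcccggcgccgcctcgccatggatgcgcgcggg
Hcn4 (chr9:58822699-58822998, plus strand): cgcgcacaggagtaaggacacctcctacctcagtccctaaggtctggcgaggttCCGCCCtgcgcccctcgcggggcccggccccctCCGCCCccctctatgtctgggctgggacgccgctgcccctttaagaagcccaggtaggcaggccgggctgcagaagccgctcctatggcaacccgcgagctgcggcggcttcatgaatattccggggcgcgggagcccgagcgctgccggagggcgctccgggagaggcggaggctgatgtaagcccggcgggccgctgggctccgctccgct
Cntn2 (chr1:132542891-132543190, minus strand): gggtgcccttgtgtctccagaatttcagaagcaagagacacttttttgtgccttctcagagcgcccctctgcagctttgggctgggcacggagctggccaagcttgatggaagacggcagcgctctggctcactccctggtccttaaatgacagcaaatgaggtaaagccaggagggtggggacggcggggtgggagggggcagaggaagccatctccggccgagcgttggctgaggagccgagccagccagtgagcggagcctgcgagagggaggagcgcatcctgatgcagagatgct

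Hcn2 held 3 GC boxes, Hcn4 held 2 and Cntn2 held none, while 35.7% of 32851 promoters held at least 1. None of the Hcn2, Hcn4 and Cntn2 windows held any of the other 6 motifs searched on both strands. These were the T-box motif (TCACACC, in 3.98% of promoters), the NKX2-5 motif (TNAAGTG, in 11.5%) and the GATA factor motif (AGATAA, in 11.2%). The rest were the TATA box (TATAAA, in 13.6%), the MEF2 motif (TATTTATA, in 1.70%) and the E-box (CACGTG, in 7.15%). The reverse complement of the MEF2 motif contains the TATA box, so both can match at 1 place. Of the windows not printed, Gja5 held 1 GC box, and Gja1 held 1 GATA factor motif 135 bases before its RefSeq start. The GC content of the window was 72.3% for Hcn2, 71.7% for Hcn4, 61.3% for Cntn2, 55.7% for Gja5 and 47.7% for Gja1, beside a median of 52.7% over all promoters.

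The levels of the 7 genes in wild-type hearts spanned a wide range. Gja1 was by far the most abundant, at 261 ± 20.5 FPKM (SD, n = 6), and ranked 301st of 19660 rows. It made up 85.8% of the summed FPKM of 18 connexin rows. Gjc1 followed at 14.9 ± 0.744, Gja5 at 11.6 ± 1.10 and Hcn2 at 8.73 ± 0.996 FPKM. Cntn2 stood at 1.71 ± 0.388 and Hcn4 at 1.59 ± 0.427 FPKM, levels that did not differ beyond their spread. At the estimated depth and the full transcript length, Hcn4 rested on about 45.3 to 206 fragments per heart and Cntn2 on 72.3 to 270. The effective length used by the authors is not given in the sources used here, and the lowest Gjd3 values above 0 came out at 1.19 fragments, so these numbers are estimates. Gjd3 was listed at 0 in 3 of 6 WT hearts, 5 OGA_TG, 5 OGT_TG and all 6 DTG hearts. Its highest value was 0.232 FPKM, about 2.38 fragments. No difference in Gjd3 is reported, since none of 8 comparisons passed with no expression minimum (lowest adjusted p = 0.142).

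**Figure D1:**
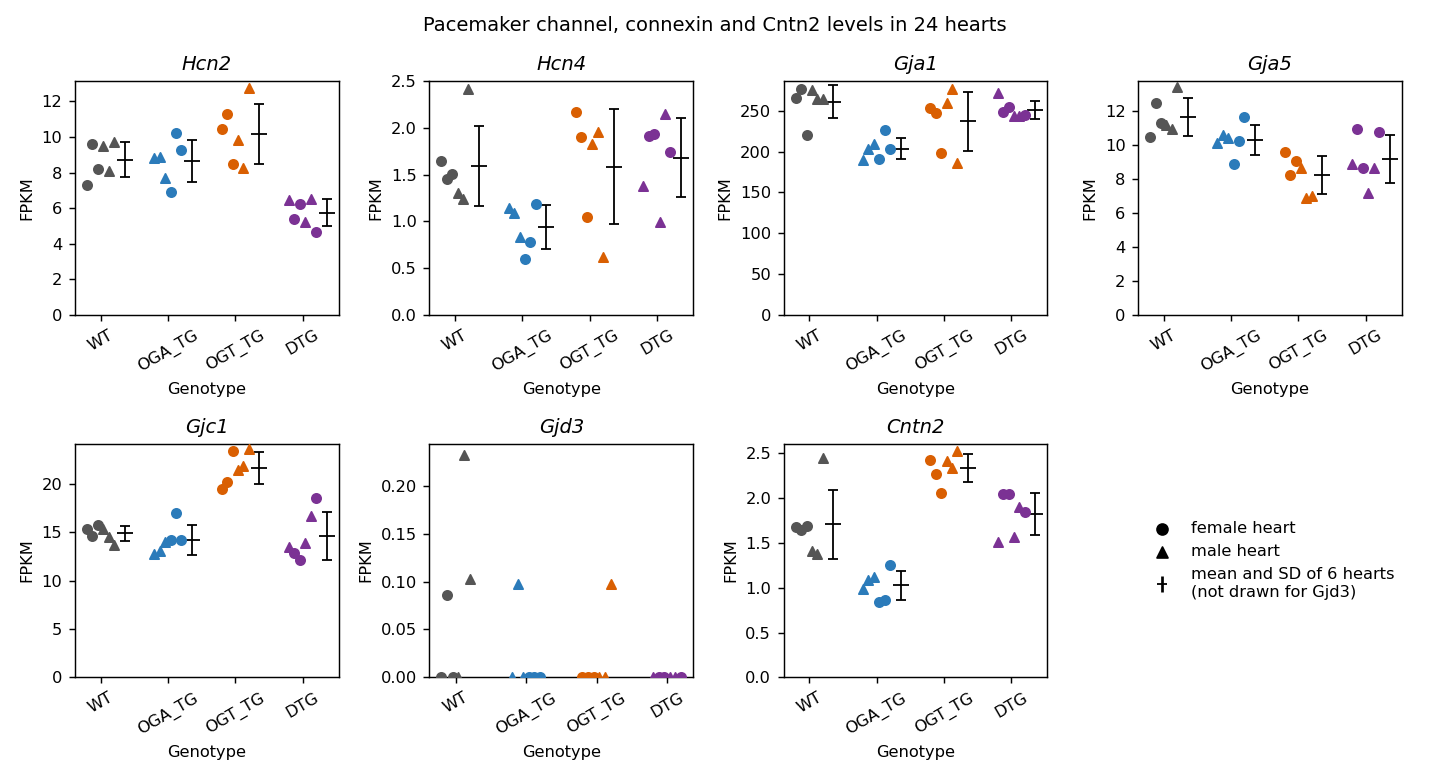
Transcript level in FPKM (vertical axis, from 0) of the 7 genes in each heart by genotype (horizontal axis), with circles for females, triangles for males and a bar for the mean and SD of 6 hearts, drawn for all genes but Gjd3. Hcn2 is lowest in DTG, where all 6 hearts lie at or below 6.51 FPKM, Gjc1 is highest in OGT_TG, and Cntn2 is lowest in OGA_TG.

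Hcn2, the channel of atrial and ventricular muscle, was lower in hearts with both transgenes than in any other genotype. The lowest, median and highest heart stood at 7.32, 8.83 and 9.69 FPKM in WT and at 6.88, 8.85 and 10.2 in OGA_TG. In OGT_TG they stood at 8.28, 10.1 and 12.7 FPKM. In DTG they stood at 4.63, 5.80 and 6.51 FPKM, so every DTG heart lay below every heart of the 3 other genotypes. Of all rows tested, 6.57% had every DTG heart below every WT heart, 8.77% below every OGT_TG heart and 5.73% below every OGA_TG heart.

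The mean Hcn2 level in DTG was 34.2% below WT. Differences were tested with limma on log2(FPKM + 1), a scale that understates changes of low genes, and a difference counts as called where the Benjamini-Hochberg adjusted p, taken over 12020 rows, is below 0.05. Hcn2 differed by -0.53 between DTG and WT (SE 0.10, adjusted p = 0.00102), by -0.72 between DTG and OGT_TG (adjusted p = 3.58e-05) and by -0.51 between DTG and OGA_TG (adjusted p = 0.0011). It did not pass in OGT_TG against WT (0.19, 95% interval -0.02 to 0.40, adjusted p = 0.148) or in OGA_TG against WT (-0.02, interval -0.23 to 0.19, adjusted p = 0.983). Without OGT_TG replicates 3 and 6 the DTG difference from OGT_TG was -0.70 (adjusted p = 0.000117). Over all rows, 15.6% were called in DTG against WT and 37.4% in OGT_TG against WT (25.3% without replicates 3 and 6). Of 9 tested markers of ventricular muscle, 3 fell and 1 rose in DTG against WT. In OGT_TG 5 fell (4 without replicates 3 and 6), and none was called in OGA_TG with limma, where 0.358% of rows were called. Their summed level was 35657 to 39834 FPKM in WT, 36875 to 38205 in OGA_TG, 24180 to 34388 in OGT_TG (from 31598 without both hearts) and 30581 to 33508 in DTG. Their part in the result for Hcn2 was not tested.

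Hcn4, the main channel of sinoatrial pacemaker cells, had its lowest mean in OGA_TG. The lowest, median and highest heart stood at 1.24, 1.48 and 2.41 FPKM in WT and at 0.599, 0.965 and 1.19 in OGA_TG. Every OGA_TG heart lay below every WT heart, as in 1.44% of all rows tested, with the WT maximum in replicate 6. The OGT_TG values were 0.613, 1.87 and 2.17 FPKM and the DTG values 0.994, 1.83 and 2.15, both overlapping WT.

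The OGA_TG mean of Hcn4 was 41.0% below WT, but the difference of -0.41 log2 (SE 0.15, 95% interval -0.73 to -0.10) missed the threshold over all rows (adjusted p = 0.333). Hcn4 was higher in DTG than in OGA_TG by 0.46 (adjusted p = 0.0356) and in OGT_TG than in OGA_TG by 0.38 (adjusted p = 0.0421). Both calls were marginal. The DTG call was lost when any of OGA_TG replicates 3, 4 or 5 or DTG replicates 2, 3, 5 or 6 was left out (highest adjusted p = 0.0934). The OGT_TG call was lost without any of OGA_TG replicates 3, 4 or 5 or OGT_TG replicates 1, 2, 4 or 5 (highest adjusted p = 0.103), with median-of-ratios scaling (0.31, adjusted p = 0.103), with quantile normalization (0.25, adjusted p = 0.177) and with only the groups compared (adjusted p = 0.0891). With no expression minimum, the call from DTG (adjusted p = 0.0585) and that from OGT_TG (adjusted p = 0.0613) were both lost.

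The spread of Hcn4 in OGT_TG came from the hearts that stood apart: replicates 3 and 6 were at 1.05 and 0.613 FPKM, while the other 4 ran from 1.83 to 2.17. Without both hearts the Hcn4 difference from WT was 0.21 (adjusted p = 0.255) in place of -0.03 (adjusted p = 0.902), and that from OGA_TG was 0.62 (adjusted p = 0.000721) in place of 0.38. Hcn4 was therefore not distinguishable from WT in OGT_TG in either fit.

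The balance of both channels was read from the ratio of Hcn4 to Hcn2 FPKM in each heart. It was 0.183 ± 0.0449 in WT, 0.109 ± 0.0225 in OGA_TG, 0.162 ± 0.0675 in OGT_TG and 0.296 ± 0.0768 in DTG (SD, n = 6). The OGT_TG mean was 0.200 ± 0.0293 without replicates 3 and 6 (n = 4). The DTG mean was the highest beside the lowest Hcn2 level, while Hcn4 in DTG differed from WT by only 0.05 log2 (95% interval -0.26 to 0.36, adjusted p = 0.879). All 6 OGA_TG ratios, at or below 0.130, lay under all 6 WT ratios, at or above 0.137, and the DTG ratios, from 0.190 to 0.376, overlapped those of WT. Since every OGA_TG heart lay below every WT heart in Hcn4 itself, the ratio is no separate support. No share over ratios of other rows was taken.

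**Figure D2:**
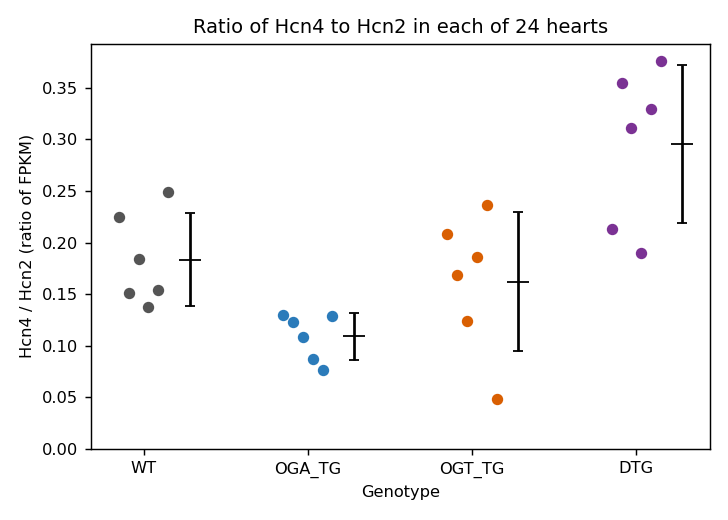
Ratio of Hcn4 to Hcn2 FPKM (vertical axis, from 0) in each heart by genotype (horizontal axis), with points for hearts and a bar for the mean and SD of 6 hearts. The OGA_TG hearts lie at or below 0.130, and the DTG hearts run from 0.190 to 0.376.

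Gja1, the gap junction gene of working muscle, had its lowest mean and median in OGA_TG. The lowest, median and highest heart stood at 221, 265 and 276 FPKM in WT and at 189, 203 and 226 in OGA_TG. All 6 OGA_TG hearts lay below the WT mean, and the ranges overlapped through 1 WT heart, replicate 3, at 221 FPKM. The OGT_TG values were 186, 250.4 and 277 FPKM and the DTG values 244, 246 and 272.

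The Gja1 mean was 22.0% below WT in OGA_TG, a difference of -0.36 log2 (SE 0.08, 95% interval -0.52 to -0.19) that missed the threshold narrowly (adjusted p = 0.054). It was called in only 4 of 24 fits that left out a heart (highest adjusted p = 0.142) and in 3 of 12 other fits (highest adjusted p = 0.806). The calls came without OGT_TG replicates 3 and 6 (adjusted p = 0.000946), also with WT replicate 6 left out, and in a fit of only OGA_TG and WT (adjusted p = 0.0207). With a single heart left out, they came without any of OGT_TG replicates 3, 5 or 6 or WT replicate 3 (lowest adjusted p = 0.0124). The DTG hearts all stood above the highest OGA_TG heart, as in 5.63% of rows, with a Gja1 difference of 0.30 (adjusted p = 0.0119). Gja1 was higher in OGT_TG than in OGA_TG by 0.21 (adjusted p = 0.0449).

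That last call held in 9 of 24 fits that left out a heart, being lost without OGA_TG replicates 1, 2, 3, 4 or 6, OGT_TG 1, 2, 4 or 5, DTG 2, 3, 4 or 5, or WT 5 or 6 (highest adjusted p = 0.118). It was also lost with no expression minimum (adjusted p = 0.0611), with only the groups compared (adjusted p = 0.127), when the libraries were quantile normalized (adjusted p = 0.189) and when they were scaled by the median of ratios (0.07, adjusted p = 0.517). In OGT_TG, replicates 3 and 6 were at 199 and 186 FPKM, against 247 to 277 in the other 4. Without both, the difference between OGT_TG and OGA_TG was 0.35 (adjusted p = 0.000118), and that between OGT_TG and WT was -0.01 (adjusted p = 0.941) in place of -0.15 (adjusted p = 0.153). Under median-of-ratios scaling of all hearts, Gja1 was called lower in OGT_TG than in WT (-0.23, adjusted p = 0.0383).

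Gja5, the atrial, Purkinje and arterial connexin, was lower than in WT in both genotypes with the OGT transgene. The lowest, median and highest heart stood at 10.5, 11.2 and 13.4 FPKM in WT, at 8.87, 10.3 and 11.6 in OGA_TG, at 6.85, 8.42 and 9.56 in OGT_TG and at 7.14, 8.75 and 10.9 in DTG. Every OGT_TG heart lay below every WT heart, as in 4.47% of rows. All 6 DTG hearts lay below the WT mean, and their range overlapped that of WT.

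Against WT, Gja5 differed by -0.46 log2 in OGT_TG (SE 0.09, adjusted p = 0.0003), by -0.32 in DTG (adjusted p = 0.0136) and by -0.16 in OGA_TG (95% interval -0.34 to 0.02, adjusted p = 0.613). The OGT_TG difference was -0.44 without replicates 3 and 6 (adjusted p = 0.00181). In females alone it was -0.32 (adjusted p = 0.107). The DTG difference was -0.16 in females alone (adjusted p = 0.563) and -0.48 in males alone (adjusted p = 0.0585), with 3 hearts a group, and a difference between the sexes in these values was not tested. DTG did not differ from OGT_TG beyond the threshold (0.14, adjusted p = 0.236), but Gja5 was called higher in DTG with quantile normalization (0.26, adjusted p = 0.0279) and with median-of-ratios scaling (0.25, adjusted p = 0.0355). Against OGA_TG, Gja5 differed by -0.30 in OGT_TG (adjusted p = 0.00767). In DTG it differed from OGA_TG by -0.16 (95% interval -0.34 to 0.02, adjusted p = 0.21), which passed in 0 of 24 fits that left out a heart. Gja5 overlaps Gpr89 and other genes on the opposite strand of chr3:96904693-97077416 (mm10, GENCODE M21), and the strand setting used for quantification is not given in the sources used here.

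Markers of atrial muscle moved beside Gja5. Of 12 such genes, 6 fell and 1 rose in OGT_TG against WT, where 37.4% of rows were called. Myl7, the atrial myosin light chain, stood at 509 ± 193 in OGT_TG (624 ± 77.0 without replicates 3 and 6) against 1051 ± 197 FPKM in WT. The median over the list was -0.33 log2, beside 0.06 over all rows. The same counts, 6 and 1, were called without OGT_TG replicates 3 and 6. In DTG, 3 of the 12 fell, where 15.6% of rows were called. The summed FPKM of the list ran from 4112 to 5514 in WT, 5017 to 19193 in OGT_TG (to 5443 without both), where Nppa rose, and 2736 to 4375 in DTG. Of 11 tested arterial endothelial markers, 5 rose and none fell in OGT_TG, beside the same share of 37.4% of rows. Sums of this list were 352 to 522 FPKM in WT and 688 to 2658 in OGT_TG, with a median of 0.21 log2. Without both hearts 2 rose, where 25.3% of rows were called, the highest sum was 960 FPKM and the median was 0.13. Most of that sum was Mgp, which alone averaged 759 FPKM in OGT_TG without both hearts. The part of both lists in the result for Gja5 was not tested. In whole hearts, fewer cells of a type and less RNA per cell cannot be told apart, which applies to each gene here.

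Gjc1, the connexin of nodal cells, rose in OGT_TG alone among the comparisons with WT. The lowest, median and highest heart stood at 13.7, 15.0 and 15.8 FPKM in WT, at 12.7, 14.1 and 17.0 in OGA_TG, at 19.4, 21.7 and 23.6 in OGT_TG and at 12.1, 13.6 and 18.5 in DTG. The OGT_TG hearts lay above every heart of the other 3 genotypes. Of all rows, 10.6% had every OGT_TG heart above every WT heart, and 16.4% above every OGA_TG heart.

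The Gjc1 mean in OGT_TG was 45.5% above WT, a difference of 0.51 log2 (SE 0.08, adjusted p = 6.97e-05). It was 0.58 above OGA_TG (adjusted p = 1.06e-05), and DTG was below OGT_TG by -0.55 (adjusted p = 6.78e-05). DTG differed from WT by -0.04 (95% interval -0.21 to 0.13, adjusted p = 0.802). Without OGT_TG replicates 3 and 6 the difference between OGT_TG and WT was 0.45 (adjusted p = 0.000939).

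Fibroblast markers moved in the same direction as Gjc1. All 12 rose in OGT_TG (median 0.98 log2), with Dcn, which encodes the matrix proteoglycan decorin, at 737 ± 94.5 against 374 ± 46.6 FPKM in WT. Their summed level ran from 1120 to 1329 FPKM in WT, 1085 to 1247 in OGA_TG, 1863 to 3287 in OGT_TG and 1253 to 1687 in DTG. Without OGT_TG replicates 3 and 6, 10 of 12 rose, with a median of 0.68 and sums up to 2334 FPKM. Of 11 macrophage markers tested, 8 rose in OGT_TG, where 37.4% of rows were called, with sums of 191 to 235 FPKM in WT and 256 to 612 in OGT_TG. Without both hearts 3 rose, where 25.3% of rows were called, and the highest sum was 322 FPKM. Their part in the Gjc1 result was not tested.

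With Gja5 lower and Gjc1 higher, the ratio of Gjc1 to Gja5 FPKM was 2.69 ± 0.504 in OGT_TG, against 1.29 ± 0.165 in WT, 1.39 ± 0.195 in OGA_TG and 1.62 ± 0.305 in DTG (SD, n = 6). It was 2.54 ± 0.480 in OGT_TG without replicates 3 and 6 (n = 4). The lowest OGT_TG heart, at 2.03, lay above the highest heart of any other genotype, at 1.94. Both genes were already called in OGT_TG against WT, so the ratio restates those differences and is no separate support. No share over ratios of other rows was taken. Within the connexin rows, the Gjc1 share was 4.91% ± 0.542 in WT and 7.76% ± 1.44 in OGT_TG, and the Gja5 share was 3.82% ± 0.396 and 2.92% ± 0.467. Gja1 kept a share of 83.3% to 86.5% as the mean of each genotype.

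Cntn2, a neuronal adhesion molecule that also marks cells of the His-Purkinje system, was lowest in OGA_TG and highest in OGT_TG. The lowest, median and highest heart stood at 1.38, 1.66 and 2.45 FPKM in WT, at 0.846, 1.04 and 1.26 in OGA_TG, at 2.06, 2.37 and 2.52 in OGT_TG and at 1.51, 1.88 and 2.05 in DTG. All OGA_TG hearts lay below all hearts of the other genotypes. Of all rows, 1.44% had every OGA_TG heart below every WT heart, 16.4% below every OGT_TG heart and 5.63% below every DTG heart. All OGT_TG hearts lay above all DTG hearts, as in 8.77% of rows, and they overlapped WT only through WT replicate 6.

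The Cntn2 mean was 39.9% below WT in OGA_TG (-0.41 log2, SE 0.08, adjusted p = 0.0274) and 36.9% above WT in OGT_TG (0.31, adjusted p = 0.0056). OGT_TG exceeded OGA_TG by 0.72 (adjusted p = 6.3e-07) and DTG exceeded OGA_TG by 0.48 (adjusted p = 0.00032). DTG was below OGT_TG by -0.25 (adjusted p = 0.0282) and differed from WT by 0.07 (95% interval -0.11 to 0.24, adjusted p = 0.658).

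Between OGT_TG and OGA_TG, Cntn2 passed in 24 of 24 fits that left out a heart and in 11 of 11 other fits. The OGA_TG fall from WT was lost without any of OGA_TG replicates 1, 2, 4 or 5 or WT replicates 1, 3 or 6 (highest adjusted p = 0.0858), with median-of-ratios scaling (-0.38, adjusted p = 0.0621), with quantile normalization (adjusted p = 0.124) and with only the groups compared (adjusted p = 0.0723). The OGT_TG rise was 0.32 without replicates 3 and 6 (adjusted p = 0.0142). It was lost under quantile normalization (0.18, adjusted p = 0.106), in females alone (0.28, adjusted p = 0.119) and in males alone (0.34, adjusted p = 0.114). The fall from OGT_TG to DTG was lost without OGT_TG replicate 6, DTG replicate 1 or DTG replicate 4, without OGT_TG replicates 3 and 6 (-0.26, adjusted p = 0.0512), after scaling by the median of ratios (-0.16, adjusted p = 0.186) and after quantile normalization (-0.09, adjusted p = 0.493).

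Neural and Schwann cell markers were higher in OGT_TG as well. Of 7 tested, 4 rose there, where 37.4% of rows were called, among them Prnp and Uchl1. None was called in OGA_TG with limma, where only 0.358% of rows were called. The list median in OGT_TG was 0.66 log2. When OGT_TG replicates 3 and 6 were left out, 3 rose, where 25.3% of rows were called, the median was 0.35 and the highest sum was 148 FPKM. Their summed FPKM ran from 78.7 to 93.4 in WT, 69.9 to 83.5 in OGA_TG, 138 to 247 in OGT_TG and 92.0 to 104 in DTG. Th, a defining gene of sympathetic neurons, averaged 0.0619 FPKM in WT. The part of these cells in the Cntn2 result was not tested.

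Hcn4 and Cntn2 stood at nearly the same FPKM in most hearts. The ratio of Hcn4 to Cntn2 was 0.928 ± 0.0456 in WT, with all 6 hearts between 0.886 and 0.986, although WT replicate 6 had the highest WT level of both genes (2.41 and 2.45 FPKM). It was 0.912 ± 0.168 in OGA_TG and 0.916 ± 0.158 in DTG. In OGT_TG it was 0.680 ± 0.254, with a low of 0.243 in replicate 6, where Cntn2 was the highest of its genotype and Hcn4 the lowest (SD, n = 6 each). It was 0.832 ± 0.0570 there without replicates 3 and 6 (n = 4).

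**Figure D3:**
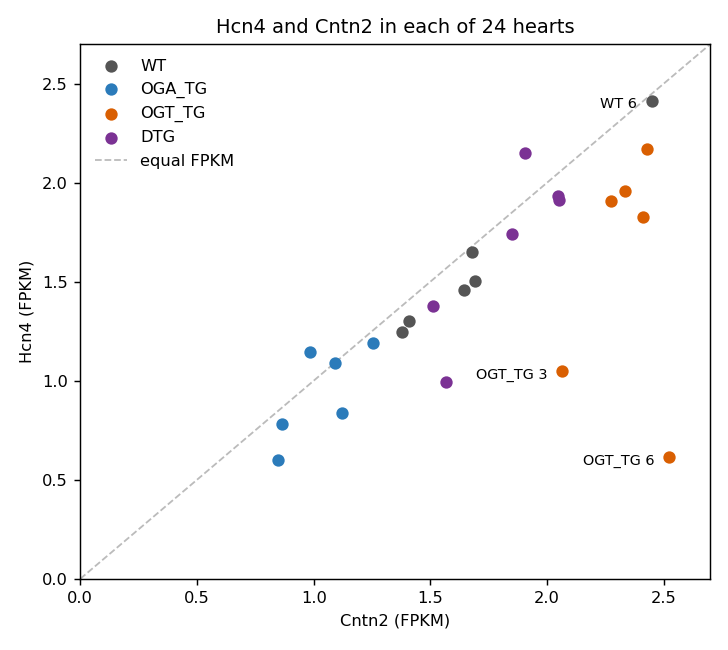
Hcn4 (vertical axis) against Cntn2 (horizontal axis), both in FPKM, with 1 point for each of 24 hearts coloured by genotype and a dashed line of equal levels. Most hearts lie just under the line, while OGT_TG replicates 3 and 6 lie far below it, at 1.05 and 0.613 FPKM of Hcn4.

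Over 24 hearts the Pearson r of Hcn4 and Cntn2 on log2(FPKM + 1) was 0.65, and 0.58 after the genotype means were removed. Without OGT_TG replicates 3 and 6 it was 0.93. For Hcn4 and Gja1 the r was of similar size, at 0.69, with 0.52 after the genotype means were removed and 0.62 without both OGT_TG hearts. Hcn2 followed neither Hcn4 nor Cntn2, with r of -0.14 for Hcn4 and 0.13 for Cntn2. These r describe whole-heart libraries, whose points share genotype, and no p is attached.

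Set by comparison, the number of members called is read against the share of all 12020 rows called. In OGT_TG against WT, 3 of 6 tested members passed (Gjc1 and Cntn2 higher, Gja5 lower), where 37.4% of rows passed. In OGA_TG against WT, 1 of 6 passed (Cntn2, lower), where 0.358% of rows passed and 0.300% were lower, and 3 of 6 had an unadjusted p under 0.05 (Hcn4, Gja1 and Cntn2, all lower), as had 9.48% of rows. In DTG against WT, 2 of 6 passed (Hcn2 and Gja5, lower), where 15.6% of rows passed and 11.4% were lower. These 3 comparisons share the WT hearts, so their values are not independent.

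Between transgenic genotypes, 3 of 6 passed in DTG against OGT_TG (Hcn2, Gjc1 and Cntn2, all lower), where 32.3% of rows passed and 27.2% were lower. The OGT row averaged 4652 FPKM in DTG and 1748 in OGT_TG, so these genotypes differ in the level of both transgenes. In DTG against OGA_TG, 4 of 6 passed (Hcn4, Gja1 and Cntn2 higher, Hcn2 lower), where 18.1% of rows passed. In OGT_TG against OGA_TG, 5 of 6 passed, all but Hcn2, where 44.4% of rows passed. The median of all rows was -0.11 log2 in DTG against OGT_TG and 0.11 in OGT_TG against OGA_TG as deposited, and near 0 after median-of-ratios scaling, so differences of that size in these comparisons match the shift of all rows.

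**Figure D4:**
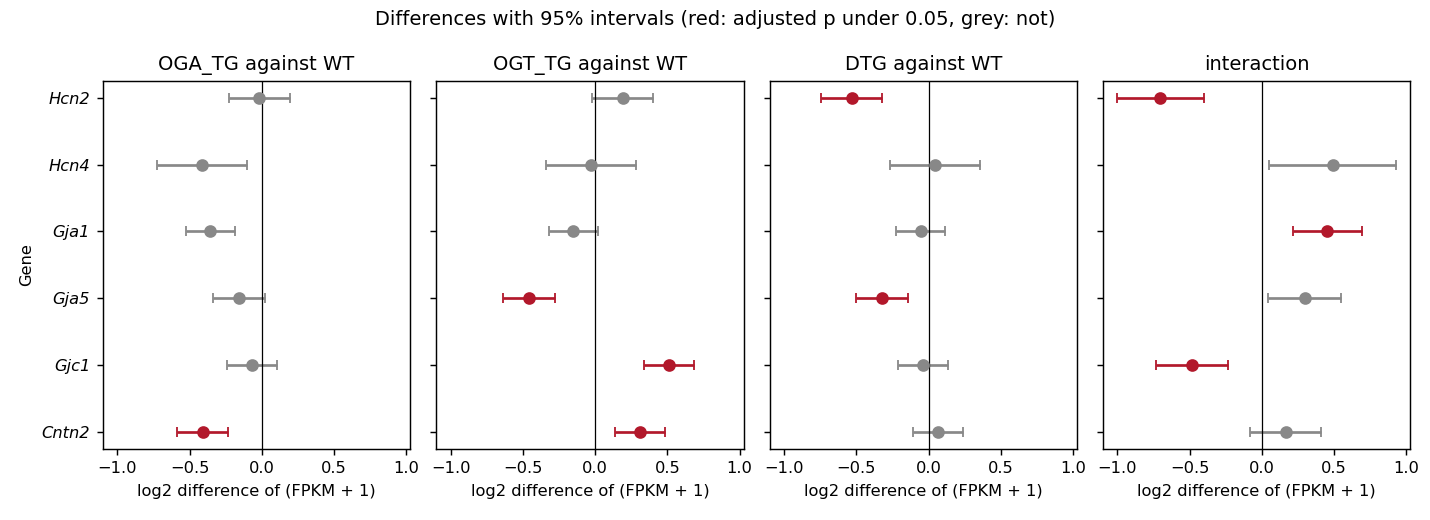
Log2 difference of FPKM + 1 (horizontal axis) with its 95% interval for the 6 tested genes (vertical axis) in 3 comparisons with WT and in the interaction of the transgenes. Red points passed an adjusted p under 0.05: Cntn2 in OGA_TG, Gja5, Gjc1 and Cntn2 in OGT_TG, Hcn2 and Gja5 in DTG, and Hcn2, Gja1 and Gjc1 in the interaction.

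The interaction asked whether the OGA transgene went with a different change where the OGT transgene was also present. It is the difference of DTG from OGT_TG less that of OGA_TG from WT. The OGT row was also higher in DTG (mean 4652 FPKM) than in OGT_TG (mean 1748 FPKM). The OGA transgene and the higher OGT level therefore cannot be told apart in the interaction. Here 3 of 6 members passed, where 7.30% of rows passed. Hcn2 had an interaction of -0.70 log2 (SE 0.14, adjusted p = 0.00764): OGA_TG differed from WT by -0.02 and DTG from OGT_TG by -0.72. Gjc1 had -0.48 (SE 0.12, adjusted p = 0.0183), from -0.07 and -0.55. Gja1 had 0.45 (SE 0.12, adjusted p = 0.0216), from -0.36 and 0.10.

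The Hcn2 interaction was -0.68 without OGT_TG replicates 3 and 6 (adjusted p = 0.00883) and passed in every fit that left out a single heart. The Gjc1 interaction without both hearts was -0.43 and missed the threshold (adjusted p = 0.0521), and that of Gja1 was 0.31 (adjusted p = 0.0303) and missed under quantile normalization (0.42, adjusted p = 0.0592) and when WT replicate 6 was left out as well (0.31, adjusted p = 0.0507). Hcn4 (0.49, adjusted p = 0.151), Gja5 (0.30, adjusted p = 0.132) and Cntn2 (0.16, adjusted p = 0.402) did not pass.

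**Figure D5:**
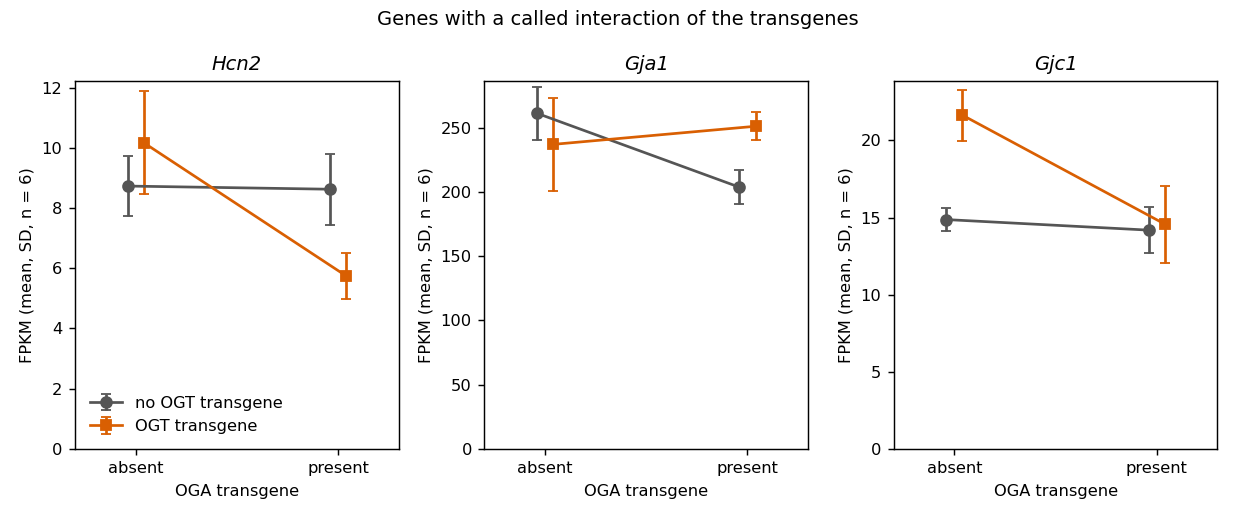
Mean FPKM with SD (vertical axis, 6 hearts per point) of Hcn2, Gja1 and Gjc1 without and with the OGA transgene (horizontal axis), for hearts without (grey circles) and with (orange squares) the OGT transgene. Lines that are not parallel show the interaction: Hcn2 goes from 10.2 to 5.74 and Gjc1 from 21.6 to 14.6 FPKM on the orange line, against 8.73 to 8.63 and 14.9 to 14.2 on the grey line, and Gja1 goes from 261 to 204 FPKM on the grey line, against 237 to 251.1 on the orange line.

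Males and females did not differ in any of the 6 members with limma (0 of 6 called, 0 of 6 with an unadjusted p under 0.05), where 0.266% of rows passed and 7.18% had an unadjusted p under 0.05. The lowest unadjusted p was that of Gja5 (0.0920), with a difference of males from females of -0.11 log2 (95% interval -0.23 to 0.02).

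Counts for genes that work with these members are read against the 37.4% of rows called in OGT_TG against WT and the 15.6% called in DTG against WT. Of 14 tested partners of the pacemaker channels (regulators, calcium and potassium channels and receptors of nodal cells), 3 rose and 4 fell in OGT_TG against WT, near that background, and 3 rose and 2 fell without OGT_TG replicates 3 and 6. Adora1, the adenosine receptor that slows the node, rose by 0.66 (adjusted p = 1.21e-05) from 3.47 ± 0.853 to 6.01 ± 0.899 FPKM, and it also rose in DTG by 0.75 (adjusted p = 8.62e-06). Popdc3, of the cAMP-binding Popeye family, rose by 0.39, while Chrm2, the muscarinic receptor of the vagus, differed by -0.25 and Cacna1h, a T-type calcium channel, by -0.54. Without both hearts Adora1 rose by 0.56 (adjusted p = 9.24e-05) and Chrm2 was no longer called (-0.15, adjusted p = 0.0721). In DTG 2 rose and 1, Mrvi1, fell (-0.28, adjusted p = 0.0017). In OGA_TG none of the 14 was called with limma, where 0.358% of rows were called. The medians of this list lay at -0.04 in OGT_TG and 0.01 in DTG, beside 0.06 and -0.04 over all rows.

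Of the other connexins and pannexins, 3 passed the minimum. Gja3, a connexin known from the lens, fell in OGT_TG from 10.0 ± 1.24 to 6.57 ± 1.37 FPKM (-0.55, adjusted p = 0.000106) and in DTG (-0.28, adjusted p = 0.0466). Panx1, which forms membrane channels of its own, rose in OGT_TG from 0.693 ± 0.210 to 4.81 ± 2.97 FPKM (1.64, adjusted p = 4.1e-06). Without OGT_TG replicates 3 and 6 the Gja3 difference was -0.43 (adjusted p = 0.00144), and Panx1 was at 2.98 ± 0.818 FPKM in OGT_TG (1.22, adjusted p = 7.05e-07). Gja4, the connexin 37 of arterial endothelium, ran from 4.58 to 14.7 FPKM in OGT_TG and from 3.94 to 6.95 in WT, and it did not pass in OGT_TG.

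Of 26 proteins of the intercalated disc, the junction that holds the gap junctions, 9 rose and 4 fell in OGT_TG, and 5 rose and 2 fell without replicates 3 and 6. Xirp2, an actin-binding protein of the disc, rose by 1.26 (adjusted p = 1.39e-05), and Ctnna3, the alpha-T-catenin of the disc, fell by 0.49 (adjusted p = 0.000174). Without both hearts these differences were 0.89 for Xirp2 and -0.39 for Ctnna3, both called. In DTG none rose and 4 fell, among them the desmosome genes Pkp2 (-0.37, adjusted p = 0.000236) and Dsp (-0.27, adjusted p = 0.000331). No disc gene was called in OGA_TG with limma, where 0.358% of rows were called. The list medians were 0.11 in OGT_TG and 0.03 in DTG.

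Among 18 tested transcription factors of the conduction system, 6 rose and 5 fell in OGT_TG, and none rose and 5 fell in DTG. In OGA_TG 1, Irx2, fell, where 0.358% of rows were called. In OGT_TG 5 rose and 5 fell without replicates 3 and 6. Irx2 stood at 2.38 ± 0.516 FPKM in WT and 1.43 ± 0.112 in OGA_TG (-0.46, adjusted p = 0.0287), and it also fell in OGT_TG (-0.50, adjusted p = 0.000306). Irx5, a repressor that shapes the ventricular repolarisation gradient in the mouse, rose by 0.54 in OGT_TG (adjusted p = 1.47e-05), and Tbx20 rose by 0.54 (adjusted p = 0.000175). Without both hearts these differences were 0.52 for Irx5 and 0.39 for Tbx20, both called. Hopx, a homeodomain protein needed for conduction in the mouse, fell by 1.01 in OGT_TG (by 0.57 without both hearts) and by 1.05 in DTG. Tbx3, a defining factor of nodal tissue, stood at 2.92 ± 0.273 FPKM in WT and 2.84 ± 0.361 in OGT_TG. The list medians were 0.09 in OGT_TG, -0.19 in OGA_TG and -0.03 in DTG, where the median of all rows in OGA_TG was -0.05.

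Of 12 sinoatrial markers, 5 passed the minimum and were tested. In OGT_TG 3 rose (Smoc2, Rgs6 and Tbx18), where 37.4% of rows were called. With limma none was called against WT in OGA_TG, where 0.358% of rows were called, or in DTG, where 15.6% were. Tbx3, given above, is also on this list and was not called in OGT_TG against WT. The list median in OGT_TG was 0.36 log2. It was 0.25 without OGT_TG replicates 3 and 6, where the same count rose and 25.3% of rows were called. Of 10 tested markers of the ventricular conduction system, 3 rose and 1 fell in OGT_TG (4 and 1 without both hearts), where Pcp4, a calmodulin regulator of Purkinje cells, fell by 0.83 (adjusted p = 0.000677) and Etv1, a transcription factor of fast conduction tissue, rose by 0.40 (adjusted p = 0.0141). Without both hearts these differences were -0.66 for Pcp4 and 0.56 for Etv1, both called. The summed FPKM of the ventricular conduction list was 129 to 155 in WT, 125 to 135 in OGA_TG, 150.4 to 167 in OGT_TG and 130 to 152 in DTG. Its median was 0.14 log2 in OGT_TG. Id2, Etv1 and Tbx18 also belong to the list of transcription factors. Of 5 tested contactins and partners of Cntn2, none rose and 2 fell in OGT_TG, with Cntn5 at -0.91 (adjusted p = 0.011) and a list median of -0.06 log2. Without both OGT_TG hearts none of the 5 was called with limma, and Cntn5 stood at -0.63 (adjusted p = 0.106).

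The genes whose levels followed each member over the 24 hearts are given by Pearson r on log2(FPKM + 1), with the r after removing genotype means second. For Hcn2 they were S100a1 (0.88, 0.66), Fam122a (0.85, 0.60) and Chmp2a (0.84, 0.62). For Hcn4 they were Slc41a1 (0.85, 0.83), Abr (0.82, 0.76) and Rasd2 (0.82, 0.78). For Gja1 they were Slc16a1 (0.82, 0.73), Slc25a13 (0.81, 0.86) and Tnfrsf19 (0.80, 0.75).

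For Gja5 they were Sec31b (0.80, 0.50), the connexin gene Gja3 (0.78, 0.49) and Fto (0.77, 0.51). For Gjc1 they were Ecm2 (0.95, 0.79), Pabpc1 (0.94, 0.83) and Hif1a (0.94, 0.82). For Cntn2 they were Tac1 (0.91, 0.37), Marveld1 (0.89, 0.40) and Gm12824 (0.89, 0.65). The r of the Hcn4 and Gja1 neighbours changed little when genotype means were removed, and that of Tac1 and Marveld1 with Cntn2 dropped most among the genes named.

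The genes lie at chr10:79716634-79736108 (Hcn2, plus strand), chr9:58823412-58863175 (Hcn4, plus), chr10:56377330-56402513 (Gja1, plus), chr11:102799579-102819700 (Gjc1, minus), chr11:98982180-98983016 (Gjd3, minus) and chr1:132509427-132543256 (Cntn2, minus), on mm10 with the GENCODE M21 annotation.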

How the data were processed

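Polyadenylated RNA of 24 whole mouse hearts was sequenced as paired 100 bp reads from stranded libraries, per the labels' protocols. The authors deposited 1 table of FPKM values for all hearts. Their processing notes name FastQC, TopHat, StringTie, SAMtools and Cuffdiff 2.2.1 and the build mm10. The table holds no counts, so depth was estimated from the steps that whole fragments leave in rows under 0.1 FPKM. The depth was searched from 10 to 20 M only and set where most of these values equal 1 fragment. At that depth 57.1% to 74.5% of the values lay within 0.1 of a whole number of fragments, against 14.1% to 27.6% at a depth 1.5 times as large. Because the same values set the depth, these shares cannot check it.

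Of 19664 rows, 4 with missing values were left out, and 12020 of 19660 had at least 1 FPKM in at least 6 libraries. These were tested with limma 3.58.1 in R 4.3.3 (intensity trend, two-sided) on log2(FPKM + 1), with genotype and sex as terms, all 24 hearts in 1 model, and Benjamini-Hochberg adjustment over all rows for each of 8 comparisons. The labels name separate mice, and the p-values take the hearts of a genotype as independent. The main model held no term for the title number, although the 6 OGA_TG hearts carry only 2 numbers, so likeness within a number was not modelled there. The estimate of the spread is shared by all 4 genotypes, so a p-value also depends on hearts outside its comparison. The code was tested on simulated data. Gene positions came from GENCODE M21, and promoters from RefSeq on GRCm38.p6. Likeness was ranked by Pearson r over single-symbol rows above the minimum, and the 3 highest were named.

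The members, the gene lists and the comparisons were chosen with earlier results of these data known. Named list genes were the called ones with the lowest adjusted p, up to 4 in OGT_TG against WT and up to 2 elsewhere, of which some are given. Tbx3 and Gja4 were named after their values were seen. Some genes are not reported here.

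WT and OGT_TG hearts share the number that opens the sample titles. Same-numbered hearts deviated together (r from 0.148 to 0.575 over 4 numbers), though for 1 number the r with another number was higher (0.356 against 0.216), so by the rule that every r exceed 0.1 the numbers were taken to pair the samples, and a fit with that number as a block was run. Other settings were a pseudocount of 0.1, no filter, a filter of 5 FPKM, no sex term, 3 other scalings, only the groups compared, single-sex fits, and leaving out each heart or both OGT_TG hearts that stood apart. The values of lists and ratios without both were added after the data were seen.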

Additional observations from a re-analysis of the deposited data

Results flagged for a closer look

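Of 27 groups of 6 hearts with any level above 0, 6 held a heart far from the others by Dixon's criterion, which chance meets in about 1 group in 20. That rate does not apply to the Gjd3 groups among the 6, where 5 hearts were at 0 and any level above 0 meets the criterion. WT replicate 6 was high in Hcn4 (2.41 FPKM, against 1.24 to 1.65 in the other WT hearts) and in Cntn2 (2.45 FPKM, against 1.38 to 1.69). Without it, Cntn2 differed by -0.33 log2 between OGA_TG and WT (adjusted p = 0.0544), where it had passed, and Hcn4 by -0.32 (adjusted p = 0.547). WT replicate 3 was low in Gja1 at 221 FPKM. Without it, Gja1 passed in OGA_TG against WT (-0.40, adjusted p = 0.0299).

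OGA_TG replicate 5 was high in Gjc1 at 17.0 FPKM, and Gjc1 in OGA_TG against WT did not pass with it or without it (-0.12, adjusted p = 0.811). For Gjd3, OGA_TG replicate 2 at 0.0970 FPKM and OGT_TG replicate 6 at 0.0976 FPKM were each the only heart of their genotype above 0, which is about 1 fragment.

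The change that went with the OGA transgene differed between hearts without and with the OGT transgene, by the interaction term of limma, for Hcn2 (-0.70, adjusted p = 0.00764), Gja1 (0.45, adjusted p = 0.0216) and Gjc1 (-0.48, adjusted p = 0.0183). The OGT row was also higher in DTG than in OGT_TG, so the OGA transgene and the OGT level cannot be told apart here.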

How the results depend on the processing

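No called difference changed direction under any setting run. The counts of members called stayed within 1.5 times of the main count in 247 of 284 refits. With all hearts they were 3 in OGT_TG against WT, 1 in OGA_TG against WT, 2 in DTG against WT, 3 in DTG against OGT_TG, 4 in DTG against OGA_TG, 5 in OGT_TG against OGA_TG and 3 in the interaction. The 5 of OGT_TG against OGA_TG became 3 with no filter, with a filter of 5 FPKM, under median-of-ratios scaling, under quantile normalization, with only the groups compared, in females only and in males only. The 1 of OGA_TG against WT became 0 with the filter of 5 FPKM, under median-of-ratios scaling, under quantile normalization and in either sex alone, and 2 without OGT_TG replicates 3 and 6, or without these and WT replicate 6. The 4 of DTG against OGA_TG became 2 with the filter of 5 FPKM, which leaves out Hcn4 and Cntn2, and 0 in males only. In females only the count was 0 for OGT_TG against WT, 0 for DTG against WT, 1 for DTG against OGT_TG and 0 for the interaction; in males only it was 0 for DTG against WT and 0 for the interaction, with 3 hearts per genotype in each. The interaction count was 1 without OGT_TG replicates 3 and 6 and WT replicate 6, a setting added after the values were seen, in which Hcn2 remained. Other causes were not tested.

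With a single heart left out, the counts ran from 3 to 3 in OGT_TG against WT, 0 to 2 in OGA_TG against WT, 2 to 2 in DTG against WT, 2 to 3 in DTG against OGT_TG, 3 to 4 in DTG against OGA_TG, 3 to 5 in OGT_TG against OGA_TG, and 3 to 3 in the interaction. With the replicate block (the title number that pairs WT and OGT_TG hearts), 3 members were called in OGT_TG against WT, and no member's call changed. Over all rows, 43 were called in OGA_TG against WT, 156 without OGT_TG replicates 3 and 6, 81 with only the groups compared and 24 under quantile normalization; the 877 of the interaction became 557 without both hearts and 359 without WT replicate 6 as well; the 3878 of DTG against OGT_TG became 2463 with only the groups compared; the 4499 of OGT_TG against WT became 2619 without the 3 hearts, and the 43 became 142; the 32 between males and females became 70 without both OGT_TG hearts. In 1 sex alone, 0 rows (females) and 1 row (males) were called in the interaction. Hcn4 and Cntn2 rest on few fragments, and Gjd3 on fewer still.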

Other observations

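Markers of vessel wall cells are read against the share of all rows called, 37.4% in OGT_TG against WT and 15.6% in DTG against WT. Of 12 tested markers of smooth muscle and pericytes, 4 rose and 3 fell in OGT_TG against WT, and 1 rose and 2 fell in DTG. In OGT_TG without replicates 3 and 6 none rose and 3 fell, where 25.3% of rows were called. Abcc9 and Kcnj8, which encode subunits of ATP-sensitive potassium channels, both fell in OGT_TG. Which cells of the whole heart carried these transcripts was not tested. Abcc9 stood at 91.0 ± 6.41 FPKM in WT and 50.1 ± 16.5 in OGT_TG (-0.93 log2, limma adjusted p = 0.000107; -0.58 without both hearts, adjusted p = 3.9e-07), and at 56.1 ± 3.80 in DTG (-0.69, adjusted p = 0.00473). Kcnj8 stood at 20.5 ± 0.623 FPKM in WT and 16.7 ± 1.89 in OGT_TG (-0.28, adjusted p = 0.00241; -0.19 without both hearts, adjusted p = 0.0186; SD, n = 6). Of 10 tested markers of all endothelium, 2 rose in OGT_TG (none without both hearts, with limma), and 1, the VEGF receptor gene Kdr, fell in DTG (-0.33, adjusted p = 0.00372). In OGA_TG none of these markers was called with limma, where 0.358% of rows were called.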
